A study of Mus musculus with 12 samples.

Results

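The 10 genes described here encode protein tyrosine phosphatases that are known to act on insulin, growth factor or cytokine receptors: Ptpn1, Ptpn2, Ptpn6, Ptpn11, Ptpra, Ptpre, Ptprf, Ptprj, Ptprg and Ptprc. They were taken by gene name from a table of 52636 genes, and all 10 were among the 16563 genes with enough reads to be tested. The study compared wild-type (WT) mice with PTPRK knockout (KO) mice, Ptprk being another receptor phosphatase. From the steatotic liver of each of 6 mice, 3 per genotype, hepatocytes were separated by Percoll gradient and differential centrifugation by fat content, giving a low-fat fraction and a high-fat one. Polyadenylated RNA was sequenced in bulk, which gave 12 libraries in 4 groups of 3 (each genotype in each fraction). The labels name both genotypes only as Wild Type and PTPRK KO. The knockout allele, strain, age, sex and diet of the animals are not given in the sources used here. Both fractions of a mouse carry the same animal name, so the fractions are paired by mouse and the genotypes are compared between different mice. Mice are called 1 to 3 within each genotype, as the labels number them.

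Receptor tyrosine kinases and the Janus kinases bound to cytokine receptors signal by adding phosphate to tyrosines, and protein tyrosine phosphatases take it off again. The catalytic domain holds a short signature in which a cysteine attacks the phosphate. In the liver, Ptpn1 (PTP1B) and Ptprf (LAR) are known as phosphatases of the insulin receptor, Ptpn11 (SHP2) as an activator of the Ras pathway downstream of receptor kinases, and Ptpn2 (TC-PTP) as a brake on Janus kinase and STAT signalling.

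The signature is shown because it is what the genes have in common beyond the rule that chose them. It was searched in the coding sequence of the longest coding transcript, in frame, as the codons for histidine, cysteine, any pair of residues, glycine, any pair of residues and arginine. Of the 10 genes, 7 held it 1 time and 3 (Ptpra, Ptpre and Ptprf) held it 2 times. The lines below give 33 coding bases, 5′ to 3′, around the first match in 9 of the genes, with the codon of the catalytic cysteine in capitals.
Ptpn1: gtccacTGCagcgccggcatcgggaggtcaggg
Ptpn6: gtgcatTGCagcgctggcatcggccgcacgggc
Ptpn11: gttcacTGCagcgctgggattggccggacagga
Ptpra: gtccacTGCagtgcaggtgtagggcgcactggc
Ptpre: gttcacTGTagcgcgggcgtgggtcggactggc
Ptprf: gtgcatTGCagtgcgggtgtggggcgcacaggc
Ptprj: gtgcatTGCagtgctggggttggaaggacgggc
Ptprg: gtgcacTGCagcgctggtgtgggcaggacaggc
Ptprc: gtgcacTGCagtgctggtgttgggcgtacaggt
Compared with Ptpn1, the other 8 shown shared 22 to 25 of the 33 bases. The Ptpn1 stretch lies in exon 6 of 9, at chr2:167974204-167974236 on the plus strand. In 8 of the 10 genes the stretch crosses an exon junction, and in 2 (Ptpn1 and Ptpn2) it lies within 1 exon. Sequences and positions are those of the GENCODE M21 annotation of GRCm38, whereas the submitters' processing notes name mm9.

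All values below are reads per 20000000 (written 20 M), the scale on which the authors deposited the table, and 3 reads corresponded to 2.40 to 3.98 on that scale. The estimated depth of the libraries ran from 15.1 to 25 M reads. The cell types in the fractions were checked against marker genes, which do not measure fat content. Hepatocyte markers (7 in the table) summed to between 391210 and 467891 in every library; over both genotypes 1 of the 7 (Cyp2e1) rose with high fat by the limma test, and the other 6 had log2 fold changes below 0 that did not pass (median of the 7, -0.12). Markers of Kupffer, sinusoidal endothelial and stellate cells were also present, and in 6 of 6 mice each of these 3 sums was higher with high fat. The sum of 5 cholangiocyte markers, 2 of them with enough reads to be tested, was 271 to 506. It was higher with high fat in 0 of 6 mice. In bulk RNA, fewer cells of a type and less RNA per cell cannot be told apart.

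The knockout label was checked first on the targeted gene. Ptprk (chromosome 10, 28074820 to 28597397) was read at 2758, 2883 and 2724 in the WT low-fat libraries and at 1117, 1364 and 1333 in the KO low-fat libraries. In the high-fat libraries it was read at 2174, 2578 and 2469 in WT and at 1217, 1204 and 1179 in KO. The genotypes did not overlap. On the log2 scale KO libraries stood at -1.13 relative to WT (SE 0.0924, adjusted p = 0.000978, limma) among low-fat libraries, and at -0.98 (SE 0.0924, adjusted p = 0.00446, limma) among high-fat libraries. Without KO high-fat library 1 the high-fat adjusted p was 0.0776, and with only the 6 high-fat libraries in the fit it was 0.906 (limma). Reads thus remained in the KO libraries, and whether they come from a deleted part of the gene was not tested.

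The 4 non-receptor members differ in structure and in known partners. Ptpn1 (chromosome 2, 167932057 to 167979385, plus strand) is anchored to the endoplasmic reticulum. It was read at 690, 653 and 544 in low-fat WT libraries and 815, 557 and 569 in high-fat WT libraries, and at 714, 633 and 616 (low-fat) and 729, 679 and 544 (high-fat) in KO mice. The 4 groups overlapped, and the highest single value was in the high-fat library of WT mouse 1. Its close relative Ptpn2 (chromosome 18, 67665511 to 67724595, minus strand) lay between 180 and 256, with a group mean of 211 ± 11 (SD, n = 3) in WT low-fat libraries.

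Ptpn11 (chromosome 5, 121130533 to 121191397, minus strand), which carries SH2 domains that bind phosphotyrosine, was the most abundant non-receptor member. It was read at 2461, 2359 and 2201 in low-fat WT libraries and 2265, 2006 and 2245 in high-fat WT libraries, and at 2593, 2352 and 2369 (low-fat) and 2281, 2431 and 2075 (high-fat) in KO mice. Ptpn6 (SHP1; chromosome 6, 124720707 to 124738714, minus strand), an SH2-domain phosphatase best known from blood cells, ranged from 302 to 425. For Ptpn6 all 4 groups overlapped. For Ptpn11 they overlapped within each genotype and within each fraction, while the WT high-fat libraries lay below the KO low-fat libraries.

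The 6 receptor-type members span the cell membrane. Ptprf (chromosome 4, 118208213 to 118291405, minus strand) was read at 13359, 12326 and 12761 in low-fat WT libraries and 9891, 11614 and 11775 in high-fat WT libraries, and at 13796, 12164 and 13959 (low-fat) and 11439, 12248 and 12527 (high-fat) in KO mice. Its mean level stood at the 98.7th percentile of the tested genes, and the 3 WT high-fat libraries lay below the 3 WT low-fat libraries. Ptprj (DEP-1; chromosome 2, 90429754 to 90580647, minus strand), known to act on growth factor receptors and on the insulin receptor, was read at 2183, 2357 and 2245 in WT low-fat and 2262, 2083 and 2195 in WT high-fat libraries. In KO mice it was read at 2709, 2396 and 2870 in low-fat and 2639, 2404 and 2532 in high-fat libraries. All 6 KO values of Ptprj lay above all 6 WT values.

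Ptprg (chromosome 14, 11553532 to 12242041, plus strand), which has a carbonic anhydrase-like domain outside the cell, ranged from 1142 to 1520 with overlap among the 4 groups. The paired relatives Ptpra (chromosome 2, 130450278 to 130556124, plus strand) and Ptpre (chromosome 7, 135537481 to 135686293, plus strand), both known to act on Src family kinases, differed in level and in spread. Ptpra lay between 796 and 934, the narrowest range of the 10 genes with a ratio of highest to lowest library of 1.17. Ptpre was read at 156, 83 and 98 in low-fat WT libraries and 86, 60 and 99 in high-fat WT libraries, and at 113, 84 and 86 (low-fat) and 89, 73 and 68 (high-fat) in KO mice.

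Ptprc (CD45; chromosome 1, 138062861 to 138175708, minus strand) is the phosphatase of white blood cells and not of hepatocytes. It was read at 39, 136 and 25 in low-fat WT libraries and 348, 106 and 80 in high-fat WT libraries, and at 38, 216 and 17 (low-fat) and 316, 93 and 62 (high-fat) in KO mice. Its highest and lowest libraries differed 20.5-fold, against 2.6-fold for Ptpre and under 1.6-fold for each of the other 8 genes. In both genotypes the high-fat library of mouse 1 was the highest of the 3 high-fat values and the low-fat library of mouse 2 the highest of the 3 low-fat values.

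**Figure D1:**
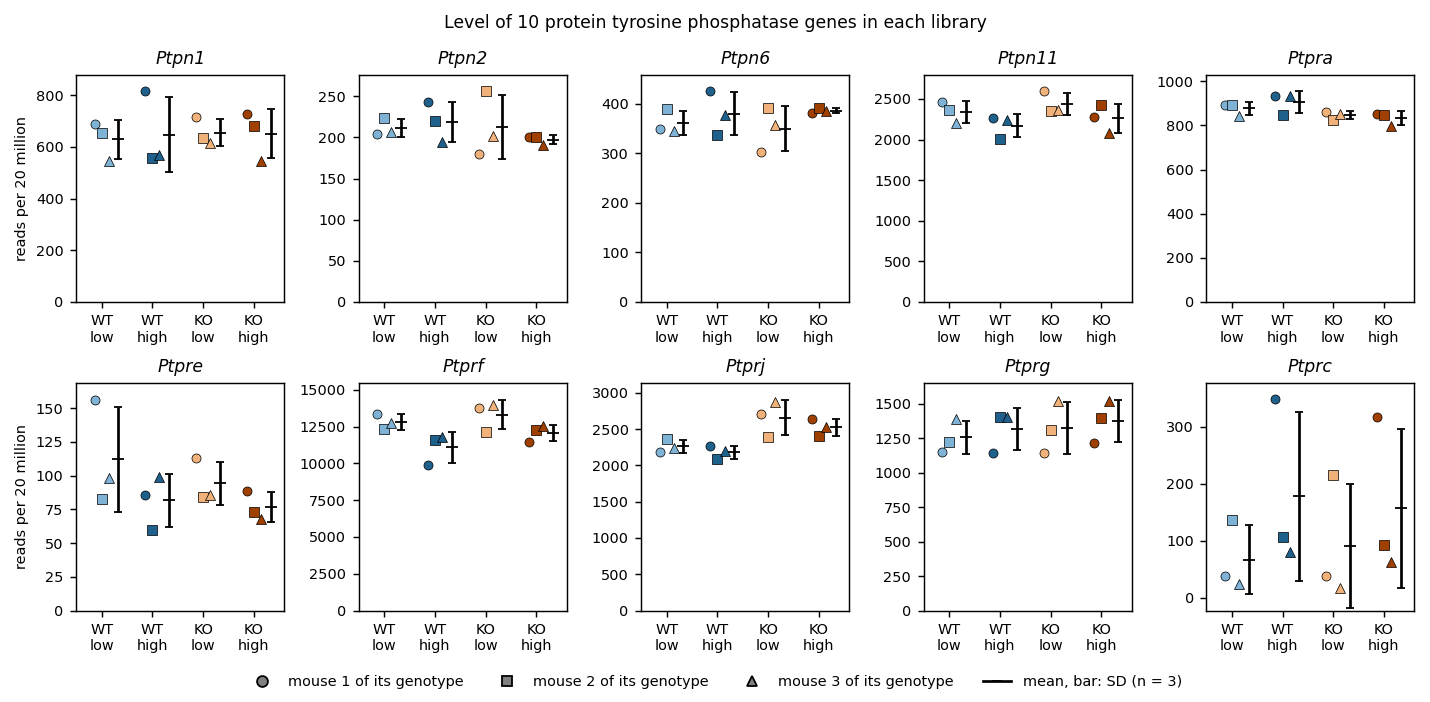
Reads per 20 M (y axis, linear, a scale of its own in each panel) of the 10 phosphatase genes in the 4 groups (x axis); each point is 1 library, its shape gives the mouse number, and the bar gives mean ± SD (n = 3). The KO points of Ptprj (2396 to 2870) lie above its WT points (2083 to 2357), and the points of Ptprc spread from 17 to 348.

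Levels of different genes were compared per kilobase of exon, as the mean of the 12 libraries. Ptprf stood first at 1350 reads per 20 M and kilobase, followed by Ptpn11 at 307 and Ptprj at 288. Ptpn6 (132), Ptprg (120) and Ptpn1 (117) formed a middle group, with Ptpra at 79.8 and Ptpn2 at 67.3 below it. Ptpre (8.95) and Ptprc (6.72) came last. In this order 5 neighbouring pairs had overlapping ranges over the 12 libraries: Ptpn11 and Ptprj, Ptpn6 and Ptprg, Ptprg and Ptpn1, Ptpra and Ptpn2, and Ptpre and Ptprc. The other 4 steps, among them that from Ptprf to Ptpn11, held in 12 of 12 libraries without overlap. The exon length counts every annotated exon, so a gene whose hepatocyte transcripts use fewer exons is placed too low.

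**Figure D2:**
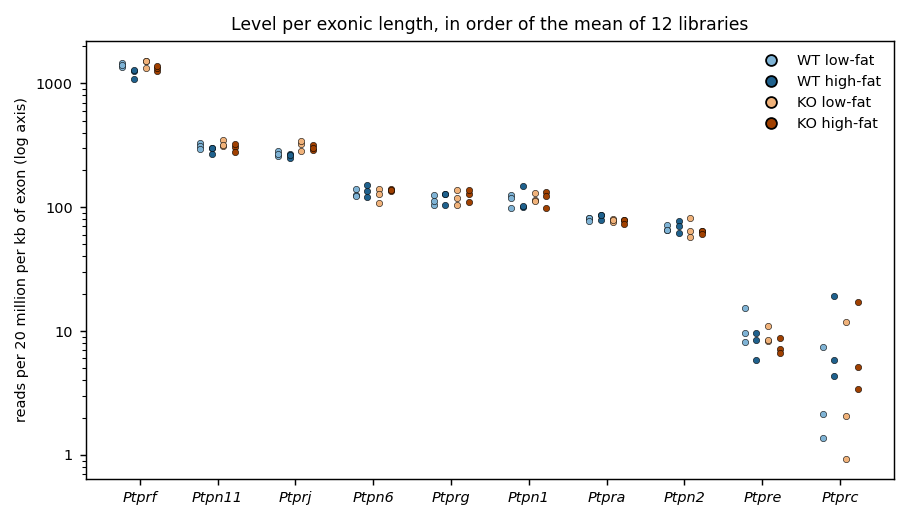
Reads per 20 M and kilobase of exon (y axis, log scale) of the 10 genes (x axis) in the 12 libraries, ordered by their mean. Ptprf, at a mean of 1350, stands apart from Ptpn11 at 307 and Ptprj at 288, and Ptpre (8.95) and Ptprc (6.72) lie lowest.

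The first comparison asked whether loss of Ptprk was accompanied by a change in these other phosphatases. With limma on log2(value + 2) over all tested genes, 0 of the 10 genes passed an adjusted p of 0.05 in the low-fat fraction, where 0.00604% of all tested genes (1 gene, Ptprk) passed. In the high-fat fraction 0 of 10 passed as well, again against 0.00604% of all genes. An unadjusted p under 0.05 was found for 1 of 10 in each fraction, against 1.64% (low-fat) and 1.97% (high-fat) of all genes, and that gene was Ptprj both times. Of the 10 log2 fold changes, 7 were above 0 in the low-fat fraction (median 0.06, all genes 0.0011) and 6 in the high-fat fraction (median 0.05, all genes 0.0033). Among all tested genes, 50.4% (low-fat) and 50.9% (high-fat) were above 0.

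Ptprj was 18.2% higher in KO than in WT low-fat hepatocytes (log2 fold change 0.24, SE 0.0953, 95% interval 0.03 to 0.45, limma unadjusted p = 0.027, adjusted p = 1). In the high-fat fraction it was 17.6% higher (log2 fold change 0.23, SE 0.0953, 95% interval 0.03 to 0.44, limma unadjusted p = 0.0307, adjusted p = 1). The difference therefore did not pass the test over all genes in either fraction, and 125 and 184 genes had smaller unadjusted p-values. Averaged over both fractions of a mouse on the deposited scale, Ptprj was 2221 ± 1.44 in WT and 2592 ± 167 in KO mice (SD, n = 3 each). This is a ratio of 1.17 with an exact two-sided permutation p of 0.1, the smallest that 3 against 3 mice allow. The small WT SD is that of averages on this scale. The single WT libraries ran from 2083 to 2357 (after the scaling described below, from 2001 to 2398). The 2 fractions come from the same mice, so they are not separate evidence.

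On the deposited scale, KO libraries above WT libraries without overlap in both fractions were found for 51 genes, 0.308% of those tested, and all 6 KO above all 6 WT libraries for 21 genes, 0.127%. Within 1 fraction, KO above WT without overlap was found for 2% of genes (low-fat) and 2.02% (high-fat). After the additional scaling used for the test (TMM, which equalises the bulk of the genes between libraries), the low-fat groups of Ptprj overlapped: the third WT mouse stood at 2398 and the second KO mouse at 2367. The high-fat groups still did not overlap, at 2001 to 2185 in WT and 2393 to 2615 in KO, a separation that 2.28% of genes showed. Leaving out 1 library at a time gave log2 fold changes of 0.19 to 0.34 (low-fat) and 0.20 to 0.27 (high-fat). An antisense gene that overlaps Ptprj, 4933423P22Rik, was itself read at 4 to 61, and whether the counting used strand is not given in the sources used here. Without strand, reads of such pairs cannot be told apart. The same concerns Ptpra with 4930473A02Rik (149 to 212), Ptpn6 with Gm20531 (66 to 95) and Ptpre with 5830432E09Rik (4 to 18). It also concerns Ptprg with Gm48603 (37 to 62) and Gm3848 (2 to 7). Some members also overlap genes on their own strand, which strand would not separate. Examples are Ptpn11 with Gm42930 (4 to 27), Ptprf with Mir7226 (9 to 18), Ptprg with Gm48602 (4 to 66) and Ptprc with A130071D04Rik (0 to 10). Whether such pairs share reads was not tested.

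The intervals limit what these 6 mice could show. Over both fractions the 95% intervals of the KO to WT ratio were taken for 8 members, Ptprj included and Ptpre and Ptprc left out. They reached no lower than 0.763-fold and no higher than 1.37-fold, the upper bound being that of Ptprj. For Ptpre they were wider, at 0.582 to 1.31-fold in low-fat and 0.646 to 1.45-fold in high-fat libraries. Ptpn1 differed by 0.07 on the log2 scale (95% interval -0.25 to 0.40) in the low-fat fraction and by 0.04 (-0.28 to 0.37) among high-fat libraries. Ptprf differed by 0.06 (-0.22 to 0.35) and 0.15 (-0.14 to 0.43), and Ptpn11 by 0.07 (-0.15 to 0.29) and 0.08 (-0.14 to 0.30). By mouse means on the deposited scale Ptpra was 840 ± 17.5 in KO and 891 ± 21.6 in WT mice (SD, n = 3 each, exact two-sided permutation p = 0.1). With 3 against 3 mice no smaller p is possible, and the share of all genes reaching it is not given here. After the additional scaling, WT mouse 2 lay below KO mouse 3 in low-fat (864 against 876) and in high-fat libraries (815 against 822). The mouse means of the genotypes thus no longer stood apart. The log2 fold changes of Ptpra were -0.04 (-0.22 to 0.15) and -0.10 (-0.28 to 0.09). For Ptprc the interval ran from -1.92 to 2.02 in the low-fat fraction, so that these data hold little information on its difference between genotypes.

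**Figure D3:**
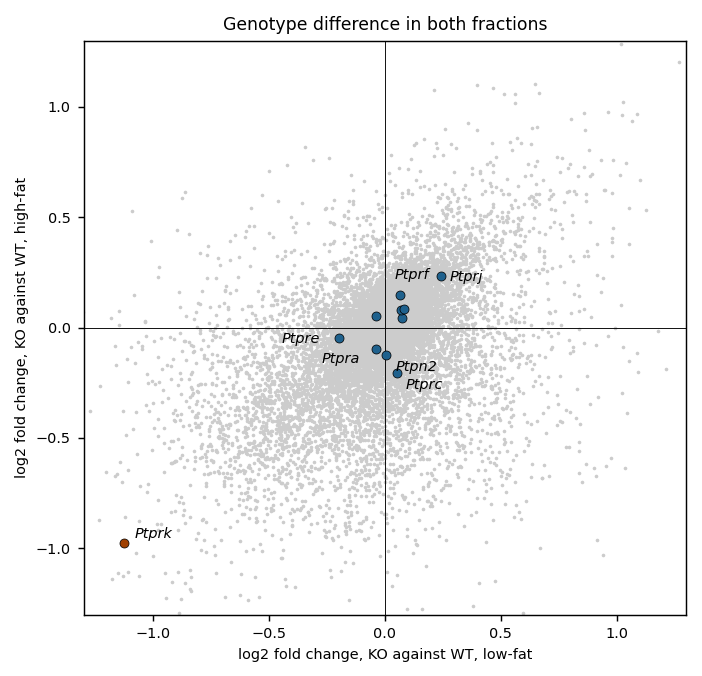
Log2 fold change KO against WT in the low-fat (x axis) and the high-fat fraction (y axis) for all tested genes (grey), the 10 phosphatase genes and Ptprk (larger coloured points, some of them named). The window leaves out 63 genes. Ptprk lies at -1.13 and -0.98. Of the 10 genes, Ptprj lies at 0.24 and 0.23, and the other 9 lie nearer to 0 on both axes.

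The second comparison set the high-fat against the low-fat fraction. None of the 10 genes passed the limma test at an adjusted p of 0.05: 0 of 10 in WT mice (0% of all genes, with 11.5% at an unadjusted p under 0.05), 0 of 10 in KO mice (0.894% of all genes) and 0 of 10 over the mean of both genotypes (5.76% of all genes). With the mouse fitted as a block the corresponding counts of members were also 0, against 1.02%, 2.13% and 10.5% of all genes. At an unadjusted p under 0.05 the counts were 1 (Ptprf), 0 and 3 (Ptprf, Ptpn11 and Ptpre), the second against 8.95% and the last against 18.9% of all genes. With the block they were 1 (Ptpre), 0 and 5 (these 3, Ptprj and Ptprc), against 19.2%, 14.1% and 28.3% of all genes. The log2 fold changes were below 0 for 9 of 10 members in WT and 8 of 10 in KO mice. Their medians were -0.05 and -0.12, where the median of all genes was -0.04 in each. Most tested genes were also below 0, with 43.3% above 0 in WT and 40.4% in KO mice. The member counts depend on the scaling. On the deposited scale Ptpn1, Ptpn2, Ptpn6, Ptpra and Ptprg turned above 0 in WT mice, and Ptprg in KO mice.

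Ptprf, the insulin receptor phosphatase with the highest level, was lower with high fat in 5 of 6 mice. Its log2 fold change was -0.29 in WT (SE 0.13, limma unadjusted p = 0.0445, adjusted p = 0.426) and -0.21 in KO mice (SE 0.13, limma adjusted p = 0.809). Over both genotypes it was -0.25 (SE 0.0918, 95% interval -0.45 to -0.05, limma adjusted p = 0.158). The exception was KO mouse 2, where it went from 12164 to 12248. The WT groups did not overlap on the deposited scale, which was true in the lower direction of 3.51% of all genes. Nor did they overlap after the additional scaling, which was true in this direction of 8.75% of all genes. Without mouse 1 of both genotypes, the mean difference was -0.10.

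Ptpn11 had a log2 fold change of -0.18 over both genotypes (SE 0.0701, 95% interval -0.34 to -0.03, limma adjusted p = 0.176), with -0.19 in WT and -0.18 in KO mice. Ptprj was at -0.13 in WT and -0.14 in KO mice, and at -0.14 over both (SE 0.0674, limma adjusted p = 0.299). After the additional scaling, the WT high-fat libraries of Ptpn11 and Ptprj lay below the WT low-fat libraries without overlap, as did those of 8.75% of all genes. Ptpre had the lowest value of the 10 genes, at -0.51 in WT and -0.36 in KO mice and -0.43 over both (SE 0.189, 95% interval -0.85 to -0.02, limma adjusted p = 0.24). After scaling, 6 of 6 mice had less Ptpre in their high-fat library (exact two-sided sign-flip permutation p = 0.0312, the smallest that 6 pairs allow), a pattern of 11.7% of all tested genes, and its KO groups did not overlap, which held in this direction for 5.74% of genes. On the deposited scale WT mouse 3 went from 98 to 99. With 1 library left out the log2 fold change of Ptpre ran from -0.76 to -0.24 in WT mice, the latter without the low-fat library of mouse 1, and from -0.46 to -0.19 in KO mice, the latter without the low-fat library of mouse 1. With the mouse as a block the limma adjusted p of Ptpre was 0.0746, the smallest for any of the 10 genes in any fit.

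The remaining 5 genes other than Ptprc lay close to 0. Over both genotypes the log2 fold change was -0.10 for Ptpn2 (95% interval -0.29 to 0.09), -0.07 for Ptpn1 (-0.30 to 0.16), -0.07 for Ptpra (-0.20 to 0.07), 0.03 for Ptpn6 (-0.14 to 0.20) and -0.01 for Ptprg (-0.25 to 0.23). Differences of this size change sign between scalings of the same libraries: on the deposited scale Ptpn1 was at 0.0046, Ptpra at 0.0099 and Ptprg at 0.06.

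**Figure D4:**
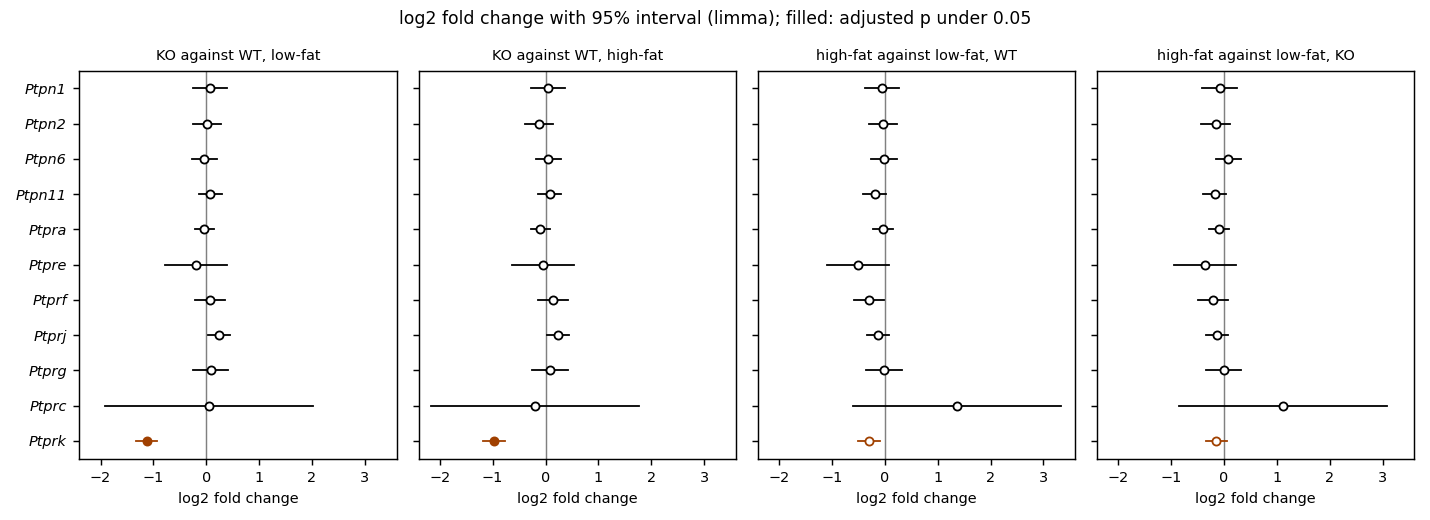
Log2 fold change (x axis) with its 95% interval from limma for the 10 genes and Ptprk in 4 comparisons: the genotypes within each fraction, and the fractions within each genotype. None of the 10 genes has a filled point, the mark of an adjusted p under 0.05, and the intervals of Ptprc are the widest. The points of Ptprk are filled for KO against WT in the low-fat and the high-fat fraction (limma adjusted p 0.000978 and 0.00446).

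Ptprc had the largest estimated difference between fractions of the 10 genes, and the mice disagreed on its direction. In WT mice 1, 2 and 3 it went from 39 to 348, from 136 to 106 and from 25 to 80, and in KO mice 1, 2 and 3 from 38 to 316, from 216 to 93 and from 17 to 62. It was thus higher with high fat in 4 of 6 mice and lower in mouse 2 of both genotypes. The log2 fold change over both genotypes was 1.24 (SE 0.635, 95% interval -0.15 to 2.63, limma adjusted p = 0.32, exact two-sided sign-flip permutation p = 0.156). Without mouse 1 of both genotypes it was 0.44 (limma adjusted p = 0.951), and without mouse 2 of both it was 2.25 (limma adjusted p = 0.123).

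Markers of the white blood cells that carry Ptprc were high in some of the same libraries. The summed level of 9 Kupffer cell markers (the liver's resident macrophages) was 321 to 1090 in low-fat and 1851 to 10375 in high-fat libraries, highest in the high-fat libraries of WT mouse 1 (10375) and KO mouse 1 (8940), and in 6 of 6 mice it was higher with high fat. Over both genotypes 8 of the 9 markers rose by the limma test, where 4.99% of all tested genes rose. The sum of 8 markers of T, B and NK cells was highest in the low-fat libraries of mouse 2, at 66 in WT and 118 in KO, and lay between 3 and 54 elsewhere. The sum of 5 monocyte and neutrophil markers was 90 and 198 in those 2 libraries and 156 and 81 in the high-fat libraries of mouse 1, against 13 to 34 in the other 8. No marker of these 3 lists was at 0 in all libraries, and several T, B and NK cell markers were at 0 in single libraries. The part of these cells in the level of Ptprc was not tested.

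Among 10508 well-measured genes, the 5 whose profile over the 12 libraries was nearest to that of Ptprc were Arhgap45, Cd74, Laptm5, Itgal and H2-Ab1, with root mean square differences of 0.39, 0.45, 0.48, 0.52 and 0.54 on the centred log2 scale. The SD of Ptprc itself on that scale was 1.3. None of the other 9 phosphatase genes reached the SD of 0.5 required for such a comparison, their variation over the libraries being too small for a ranking.

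**Figure D5:**
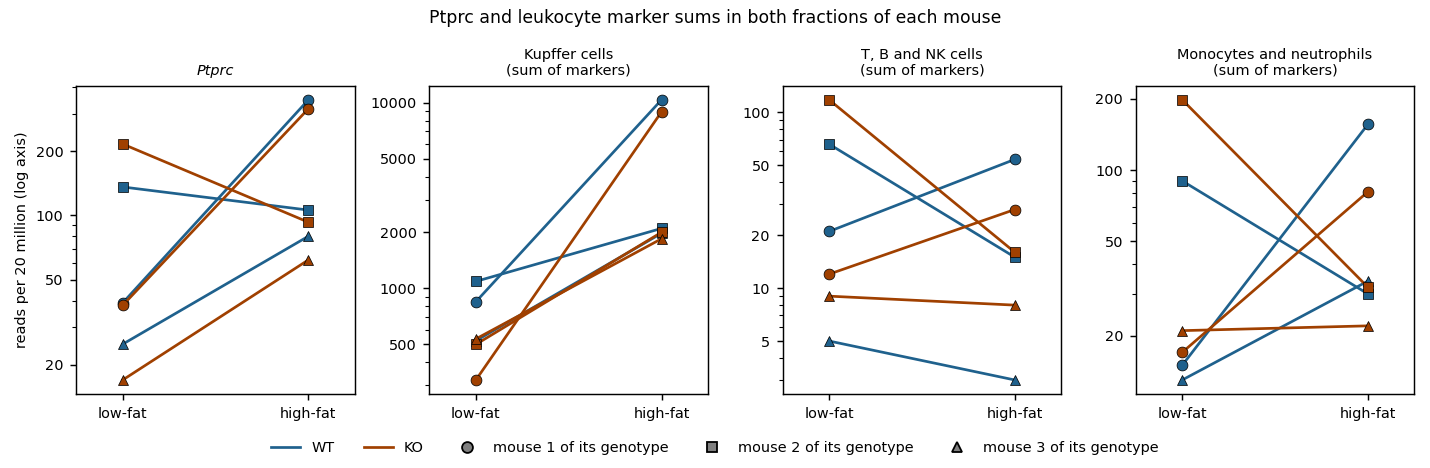
Reads per 20 M (y axis, log scale) of Ptprc and of the summed markers of Kupffer cells, of T, B and NK cells and of monocytes and neutrophils, with 1 line per mouse from the low-fat to the high-fat library. The Kupffer lines are higher at the high-fat end in 6 of 6 mice, while the 2 Ptprc lines of mouse 2 in both genotypes are lower there.

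Whether the difference between fractions depended on genotype was tested as an interaction. None of the 10 genes passed (0 of 10, limma adjusted p = 1 for each, against 0% of all genes with an adjusted and 0.145% with an unadjusted p under 0.05). The interaction estimates ran from -0.26 for Ptprc (95% interval -3.03 to 2.52) to 0.15 for Ptpre (-0.68 to 0.98). That of Ptprj was -0.0067 (-0.30 to 0.29).

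The other 27 classical tyrosine phosphatase genes give the family context. Of these, 17 had enough reads to be tested, and the other 10, such as Ptprt and Ptpro, did not exceed 12 in any library. Between genotypes Ptprk alone passed the test in each fraction. Between fractions in KO mice 1 of 17 rose, where 0.851% of all tested genes rose. It was Ptprb (VE-PTP, the endothelial phosphatase), by 1.73 on the log2 scale (SE 0.332, adjusted p = 0.0404, limma). Over both genotypes 4 of 17 rose and 1 fell, where 4.99% of all tested genes rose and 0.773% fell. In WT mice Ptprb went from 890 ± 183 to 2995 ± 1070, and in KO mice from 619 ± 263 to 2061 ± 614 (mean ± SD, n = 3 each; log2 fold change 1.68, limma adjusted p = 0.00283). Ptprm (1.98, limma adjusted p = 0.00746), Ptpn14 (1.24, 0.0158) and Ptprs (0.71, 0.0289) also rose, and Ptpn3 fell by 0.31 on the log2 scale (limma adjusted p = 0.0461). With the mouse as a block Ptprk passed in addition (-0.22, limma adjusted p = 0.0375), in a fit where 10.5% of all genes passed. Sums of 8 sinusoidal endothelial markers were 944 to 2301 in low-fat and 3804 to 12262 in high-fat libraries, and their part in these differences was not tested. With 1 library left out, Ptprb, Ptprm and Ptpn14 passed over both genotypes in 12 of 12 fits, Ptprs in 4 and Ptpn3 in 2, and Ptprb in KO mice alone in 0 of 6. Without mouse 2 of both genotypes none of the 5 passed (adjusted p 0.0799 to 0.246, limma), with log2 fold changes of 1.74 for Ptprb and 2.4 for Ptprm. Without mouse 1 of both genotypes Ptprb (1.27, limma adjusted p = 0.0106) and Ptprm (1.3, 0.03) passed, and Ptpn14 (0.88, 0.207), Ptprs (0.60, 0.356) and Ptpn3 (-0.20, 0.603) did not.

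The receptors and kinases on which the phosphatases are known to act were read from a list of 24 genes, all tested. None passed between genotypes (0 of 24 in each fraction, against 0.00604% of all genes). At an unadjusted p under 0.05 the count was also 0 in each, against 1.64% (low-fat) and 1.97% (high-fat) of all genes. A fit with the replicate number as a block gave 1 of 24 in each fraction at that limit, against 2.99% and 3.71% of all genes. Egfr, the epidermal growth factor receptor, averaged 21842 ± 8690 (WT) and 14635 ± 3020 (KO) among low-fat libraries, and 19593 ± 6630 (WT) and 12464 ± 2730 (KO) among high-fat libraries (SD, n = 3 each), with log2 fold changes of -0.51 (SE 0.325) and -0.59 (SE 0.325) and limma adjusted p-values of 1. Lepr, the leptin receptor, whose Janus kinase is a known substrate of Ptpn1, averaged 274 ± 106 (WT) and 432 ± 253 (KO) among low-fat libraries (log2 fold change 0.48, SE 0.665, limma adjusted p = 1), and 178 ± 63.5 (WT) and 359 ± 232 (KO) among high-fat libraries (0.78, SE 0.665, limma adjusted p = 1).

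Between fractions over both genotypes, 4.99% of all tested genes rose and 0.773% fell. Of this list, 6 genes that are reported here rose and 0 fell. They were the platelet-derived growth factor receptors Pdgfrb (2.39, limma adjusted p = 0.00338) and Pdgfra (2.21, 0.0025), the stem cell factor receptor Kit (2.14, 0.00649), the macrophage growth factor receptor Csf1r (1.6, 0.0351), Igf1r (1.48, 0.0244), and the Src family kinase Fyn (1.71, 0.0116). In KO mice alone Pdgfrb (2.64, 0.0402) and Pdgfra (2.3, 0.0322) rose, where 0.851% of all tested genes rose. With the mouse as a block, Jak3 (0.49, limma adjusted p = 0.0373) and Lepr (-0.55, 0.00808) passed in addition over both genotypes, where 10.5% of all genes passed. In WT mice with the block, Pdgfrb, Pdgfra and Lepr passed (limma adjusted p-values 0.0479, 0.0483 and 0.0483), against 1.02% of all genes. Sums of 8 stellate cell markers were 200 to 863 in low-fat and 2651 to 4905 in high-fat libraries, and their part in the platelet-derived growth factor receptor values was not tested. With 1 library left out, Pdgfra, Pdgfrb, Kit and Fyn passed over both genotypes in 12 of 12 fits, Igf1r in 8 and Csf1r in 7, and the platelet-derived growth factor receptors in KO mice alone in 0 of 6. Without mouse 2 of both genotypes none of the 6 passed (adjusted p 0.0799 to 0.105, limma), with log2 fold changes of 2.22 for Pdgfrb and 2.18 for Pdgfra. Without mouse 1 of both genotypes 5 of the 6 passed, Csf1r at 0.98 (limma adjusted p = 0.0448), and Igf1r did not (1.05, 0.0916). Csf1r was read at 1926 and 1682 in the high-fat libraries of WT and KO mouse 1, where the Kupffer cell sums were 10375 and 8940, and at 169 to 503 in the other 10 libraries, and the part of these cells was not tested.

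A list of 18 adaptors, STAT factors and feedback inhibitors, which pass on or limit the same signals, was tested in full. None passed between genotypes (0 of 18 in each fraction, against 0.00604% of all genes). At an unadjusted p under 0.05 the count was also 0 in each, against 1.64% (low-fat) and 1.97% (high-fat) of all genes. A fit with the replicate number as a block gave 0 (low-fat) and 1 (high-fat) of 18 at that limit, against 2.99% and 3.71% of all genes. Socs2, a feedback inhibitor of growth hormone signalling, had the lowest value in the high-fat fraction, at 419 ± 254 in WT and 182 ± 94.1 in KO libraries (SD, n = 3 each; log2 fold change -1.12, SE 0.52, limma adjusted p = 1). Between fractions over both genotypes 2 of 18 rose and 0 fell, where 4.99% of all tested genes rose and 0.773% fell. They were Gab2 (1.38, limma adjusted p = 0.0238), a docking protein for Ptpn11, and Sirpa (1.44, 0.0392), a receptor that recruits Ptpn6 and Ptpn11 in myeloid cells. With 1 library left out they passed in 8 and 3 of 12 fits, and without mouse 2 of both genotypes in neither case (adjusted p 0.0978 and 0.0976, limma). Without mouse 1 of both genotypes neither passed, Gab2 at 0.92 (limma adjusted p = 0.0936) and Sirpa at 0.84 (0.122). Sirpa was read at 598 and 497 in the high-fat libraries of WT and KO mouse 1, those with the highest Kupffer cell sums, and at 52 to 200 in the other 10, and the part of these cells was not tested. With the mouse as a block Stat3 (-0.30, limma adjusted p = 0.0112) and Cish (-0.43, 0.0331) passed in addition, both lower in the high-fat fraction. In that fit 10.5% of all genes passed.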

How the data were processed

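Per the labels, the measurements are bulk RNA sequencing of 12 hepatocyte libraries. The deposited values are a score: whole gene read counts that the authors scaled to 20000000 (20 M) per library and rounded up, as the column sums and steps of the values show. The submitters' processing notes name mm9; aligner, counter and strand setting are not given in the sources used here. Because the values are no longer raw counts, no count model was used. Libraries were rescaled by TMM, values entered limma 3.58.1 (R 4.3.3) as log2(value + 2), and genes with at least 10 in at least 3 libraries were kept. One fit of 4 group means to all 12 libraries gave 6 comparisons, with a trended variance and Benjamini-Hochberg adjustment over all tested genes; calls had an adjusted p under 0.05. Fold changes are on that log2 scale, which understates changes of low genes, and intervals are not adjusted. Simulated data were used to try the limma fits, the TMM rescaling and the depth estimate, and no other step. For limma the simulated libraries were independent, without the pairing of fractions by mouse. The alternatives tried are in the closing section.

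The members and gene lists were chosen with earlier results of these data known. All 10 members are reported. Of the other lists, genes that passed the test in either fit are named. Where none did, only some of those with the largest rise or fall are named. One gene of the receptor and kinase list is not reported here. Gene positions, exon lengths and sequences came from GENCODE M21 (GRCm38), matched by gene ID.

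The fractions are paired by the animal named in the labels. Deviations from group means correlated between the 2 fractions of a mouse at a mean r of 0.516 in WT (0.471 to 0.581) and 0.162 in KO mice (-0.0116 to 0.458). Same-numbered WT and KO mice, which the labels do not link, correlated at 0.252 to 0.397 in the low-fat and -0.173 to 0.49 in the high-fat fraction. The fit with the replicate number as a block is given where it changed a call.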

Additional observations from a re-analysis of the deposited data

How the results depend on the processing

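Alternatives were a replicate block, pseudocounts of 0.5 and 10, no filter on low values, the deposited scaling alone, median-of-ratios scaling, only the libraries compared, and each library left out; leaving out mouse 1 or mouse 2 of both genotypes was chosen after seeing the data. Of 760 values for the 10 phosphatase genes under these alternatives, 0 passed the limma test (smallest adjusted p 0.0746). Signs turned in 40 values with 1 library left out and in 22 others; Ptprj was the 1 gene with none.

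Counts over all genes moved more. With the replicate block, which pairs the fractions by mouse, the high-fat against low-fat calls went from 0 to 169 in WT, from 148 to 353 in KO and from 954 to 1731 over both genotypes; it changed no call of the 10 genes. With only the libraries compared, 0 genes passed in KO between fractions (1280 at an unadjusted p under 0.05) and 0 between genotypes in high-fat libraries (211 unadjusted). A pseudocount of 10 gave 1 call in WT between fractions. Without mouse 1 of both genotypes 22 passed in KO and 375 over both genotypes, and without mouse 2 of both 0 in each (2740 unadjusted over both). With 1 library left out the calls ranged from 0 to 1 between genotypes in high-fat libraries, from 0 to 1 in WT, from 0 to 75 in KO and from 606 to 1125 over both genotypes.

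Log2 fold changes whose sign turned were at most 0.134 in size under the alternative, apart from those of Ptprc. KO against WT in low-fat libraries, Ptpn2 was -0.00522 with the deposited scaling and -0.00262 with median-of-ratios. High-fat against low-fat in WT, the deposited scaling gave 0.0252 for Ptpn1, 0.0487 for Ptpn2, 0.0668 for Ptpn6, 0.0443 for Ptpra and 0.0669 for Ptprg, and median-of-ratios gave 0.00506 for Ptpn6 and 0.0049 for Ptprg. Without mouse 2, Ptpn1 was 0.0247 and Ptpn6 0.0779, and without mouse 1, Ptpra was 0.000438 and Ptprg 0.07. In KO, Ptprg was 0.0598 with the deposited scaling, 0.00986 with median-of-ratios and 0.0577 without mouse 1. Over both genotypes, the deposited scaling gave 0.0046 for Ptpn1, 0.00992 for Ptpra and 0.0633 for Ptprg, median-of-ratios gave 0.00738 for Ptprg, and without mouse 1 Ptpn6 was -0.00394 and Ptprg 0.0639.

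With 1 library left out, KO against WT in low-fat libraries ranged over -0.0239 to 0.151 for Ptpn1, -0.112 to 0.0856 for Ptpn2, -0.0993 to 0.0315 for Ptpn6, -0.00686 to 0.118 for Ptpn11, -0.085 to 0.00206 for Ptpra, -0.439 to 0.0694 for Ptpre, -0.0187 to 0.15 for Ptprf, -0.0209 to 0.189 for Ptprg and -0.923 to 0.818 for Ptprc. In high-fat libraries the ranges were -0.0579 to 0.207 for Ptpn1, -0.0325 to 0.127 for Ptpn6, -0.252 to 0.125 for Ptpre, -0.0258 to 0.236 for Ptprg and -0.817 to 0.414 for Ptprc. High-fat against low-fat they were, in WT, -0.233 to 0.0453 for Ptpn1, -0.108 to 0.0287 for Ptpn2, -0.0978 to 0.0731 for Ptpn6, -0.0906 to 0.0141 for Ptpra and -0.0973 to 0.094 for Ptprg. In KO mice they were -0.131 to 0.0112 for Ptpn1 and -0.119 to 0.134 for Ptprg, and over both genotypes -0.0143 to 0.0762 for Ptpn6 and -0.0663 to 0.0545 for Ptprg. The cause was not tested.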
